A study of Oryza sativa with 12 samples.

Results

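A group of 6969 rice H2A.Z regions that carry no peak of the core histone H3 was examined in wild type and in a mutant of the histone chaperone OsChz1. The peaks of 4 H2A.Z libraries were merged into 53017 regions, of which 38145 had a peak in every H2A.Z library and 31081 of these were 800 to 3800 bp wide. The 6969 regions, 22.4% of the mid-length regions, overlapped no peak in any of 4 H3 libraries. They were thus selected on measured values, namely the presence of H2A.Z peaks, their merged width and the absence of H3 peaks, and are called H3-peak-free regions. The 8936 mid-length regions that overlapped peaks of all 4 H3 libraries served for comparison and are called H3-peak-bearing regions.

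Chromatin immunoprecipitation followed by sequencing (ChIP-seq) had been performed on 30-day-old seedlings of NIP, the wild-type rice cultivar Nipponbare, and of the mutant oschz1, with 2 replicates of H2A.Z, H3 and input per genotype. The study describes the mutant as a CRISPR/Cas9 line without the transgene, with a 1-nucleotide deletion that brings a premature stop codon. It is a single allele, and whole seedlings were used, so each value is an average over tissues. The study states that the replicates were biological, while the labels give only their numbers. H2A.Z peaks held between 16886473 and 22192417 ChIP reads per library, and H3 peaks between 9179714 and 14466571.

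H2A.Z is a variant of histone H2A that replaces it in a subset of nucleosomes, in plants mostly around transcription start sites and, at inducible genes, over the gene body. It is put into nucleosomes by complexes related to SWR1, as a dimer with H2B that chaperones bring along. Chz1 was first described in budding yeast as a chaperone of such dimers. H3 is part of nearly every nucleosome, so that an H3 peak marks a stretch where H3 ChIP reads exceed input and the lack of a peak does not mean that nucleosomes are missing. Levels of H3 between peaks were not analysed here, because the tables list reads only inside peaks.

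The H3-peak-free regions lay on all 12 chromosomes, with 4 more on the sequences grouped as Sy. Their number ran from 353 on chromosome 10 to 962 on chromosome 1. As a share of the mid-length H2A.Z regions they made up between 19.5% on chromosome 10 and 25.1% on chromosome 12. In windows of 5 Mb with at least 100 mid-length regions the share was lowest, 14.8%, between 10 and 15 Mb of chromosome 4 and highest, 29.4%, between 20 and 25 Mb of chromosome 12. The regions were thus spread over the genome rather than gathered in a few places. Going along a chromosome, the next mid-length region after an H3-peak-free one was also H3-peak-free in 25.7% of cases. The longest unbroken run held 9 of them, at chr3:32274801-32306200 of the MSU rice genome, the assembly the authors mapped to.

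Their median width was 1400 bp (quartiles 1000 and 2000 bp) and together they spanned 11.0 Mb. The share of regions without an H3 peak declined with width, from 27.1% of regions of 800 bp (1171 of 4318) to 13.5% of regions of 3800 bp (60 of 444). The share with peaks of all 4 H3 libraries went from 20.4% to 38.1% over the same widths. A wider region has more bases in which an H3 peak can fall, and the part of this in the trend was not tested. At the limits of the selection, 973 regions of 600 bp and 46 regions of 4000 bp met every other condition, and their enrichment was 1.90 to 1.99 and 1.92 to 1.95, against 1.85 to 1.93 at 800 bp and 1.79 to 1.88 at 3800 bp.

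**Figure D1:**
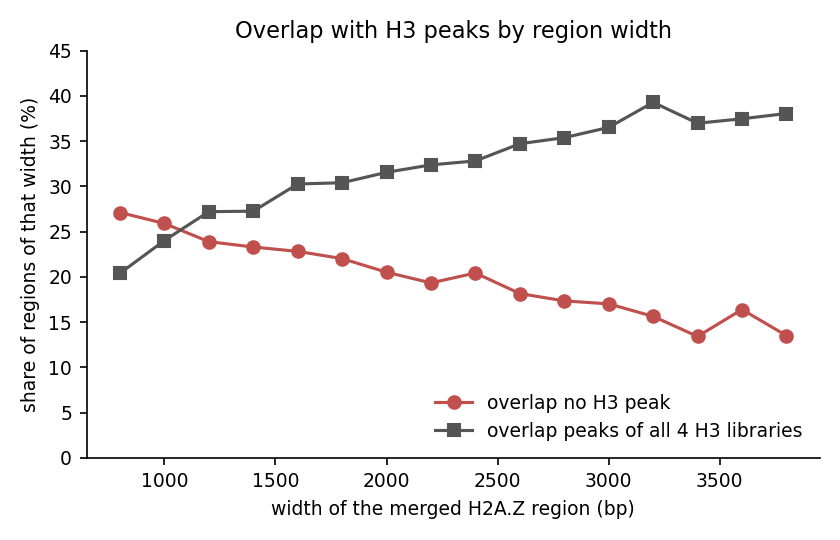
Share (%) of mid-length H2A.Z regions of each width (bp, in steps of 200) that overlap no H3 peak (circles) or peaks of all 4 H3 libraries (squares). The first falls from 27.1% to 13.5% and the second rises from 20.4% to 38.1% between the narrowest and the widest regions.

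The nearest peak of any H3 library was a median of 1400 bp away (quartiles 600 and 2800 bp), 2912 regions (41.8%) had one within 1000 bp, and 396 had one within 1000 bp on both sides. In 73 regions the H2A.Z region and an H3 peak touched without sharing a base. By contrast, 530 regions (7.61%) were more than 5000 bp from every H3 peak, and 56 more than 10000 bp. To the peaks of single H3 libraries the median distance was 2200 bp for NIP replicate 1, 2400 bp for NIP replicate 2, 2200 bp for oschz1 replicate 1 and 2400 bp for oschz1 replicate 2. The median was longer in replicate 2 of both genotypes, where H3 peaks covered less of the genome (52.4 and 50.6 Mb, against 57.6 and 56.0 Mb in replicate 1). The genotypes had the same mean of 2300 bp ± 141 (SD, n = 2 each), a difference of 0 bp with an exact permutation p of 1. The lack of an H3 peak depended on the caller's threshold, since 18648 mid-length regions overlapped no H3 peak with a false discovery rate of at most 1e-10. With these peaks the median distance was 600 bp shorter in oschz1 (exact permutation p = 0.667).

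The region farthest from any H3 peak was chr12:1801-3200, 50600 bp away and at the very start of its chromosome. It held 145 and 85 H2A.Z reads in the NIP libraries and 225 and 99 in the oschz1 libraries, and oschz1 replicate 1 alone stood above the others. The peak covered 1400 bp in that library and 400 bp in each other. The next were chr8:3458601-3459800, 18600 bp away, and chr7:15209801-15212000, 18400 bp away. The chromosome 7 region held 431, 330, 475 and 383 reads in NIP replicates 1 and 2 and oschz1 replicates 1 and 2, with an enrichment of 1.99, 2.25, 1.86 and 2.01, and the genotypes overlapped. None of these 3 regions passed the test for changed reads described further on.

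The level of H2A.Z was expressed as ChIP reads divided by input reads, with the input scaled to the ChIP library by the constant in the deposited fold values. Summed over the H3-peak-free regions, it was 1.86 and 1.87 in NIP replicates 1 and 2 and 1.82 and 1.81 in oschz1 replicates 1 and 2. The H3-peak-bearing regions had 2.63 and 2.65 in NIP and 2.43 and 2.41 in oschz1. The level went up with each further H3 library that had a peak in the region, over 2.02, 2.19 and 2.39 in NIP replicate 1 for 1, 2 and 3 libraries. This order held in all 4 libraries, and at each of the 16 widths the H3-peak-free regions were below the H3-peak-bearing ones. Both peak calls of one genotype and replicate used the same input, because 100% of the peaks with equal coordinates had equal input reads in each of the 4 pairs. The contrast of levels is a description, since H2A.Z and H3 peaks chose the regions.

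**Figure D2:**
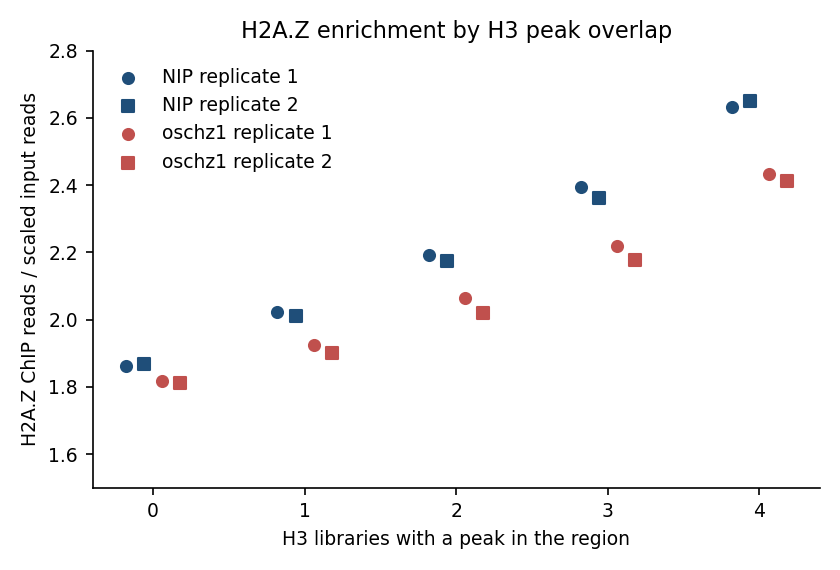
H2A.Z ChIP reads over scaled input reads (y axis, a ratio, starting at 1.5) in mid-length regions by the number of H3 libraries with a peak in the region (x axis). Each point is one library, summed over all regions of the class. Without an H3 peak the oschz1 libraries (1.82 and 1.81) are just below the NIP libraries (1.86 and 1.87), and the gap is wider with peaks of all 4 H3 libraries (2.43 and 2.41 against 2.63 and 2.65).

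Single H3-peak-free regions varied about these values. Their quartiles were 1.57 and 2.19 in NIP replicate 1 and 1.54 and 2.14 in oschz1 replicate 2. A mean over the 4 libraries above 2-fold was found in 2286 regions (32.8%), as against 7354 (82.3%) of the H3-peak-bearing regions, and above 3-fold in 74 regions. Between replicates the log2 enrichment of a single region had an SD of 0.33 in NIP and 0.30 in oschz1, while the means of the regions had an SD of 0.25. Across regions the 2 NIP libraries correlated with r = 0.25 and the 2 oschz1 libraries with r = 0.29, and a NIP with an oschz1 library with r = 0.24 to 0.27. These describe 6969 regions that share libraries. A region held a median of 244 ChIP and 53 input reads in NIP replicate 1 and of 187 and 42 in NIP replicate 2, so the level of one region was imprecise and the sums were more reliable.

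The 5 most enriched regions with at least 50 ChIP and 20 input reads in every library illustrate this. The first was chr4:24940401-24941200, with an enrichment of 4.01 and 3.47 in NIP and 3.22 and 4.76 in oschz1 and an H3 peak 400 bp away. It was 800 bp wide in all libraries and rested on 20 to 26 input reads. At chr12:13298201-13299600 the enrichment was 3.34 and 3.68 in NIP and 3.23 and 3.65 in oschz1, and at chr11:13723801-13724600 it was 3.58 and 2.89 against 3.71 and 3.57. At chr6:23140401-23141200 it was 2.37 and 3.90 in NIP and 3.49 and 3.48 in oschz1, and at chr7:14899601-14900400 it was 3.65 and 2.67 against 3.45 and 3.18, the last with an H3 peak only 200 bp away. In each of the 5 regions the genotypes overlapped, and none passed the test for changed reads.

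Input reads were fewer over the H3-peak-free than over the H3-peak-bearing regions in every library. Per kb covered by H2A.Z peaks there were 49.4, 40.3, 48.7 and 45.5 input reads in NIP replicates 1 and 2 and oschz1 replicates 1 and 2, against 64.9, 52.7, 63.6 and 59.4. The ChIP reads differed more, at 231, 181, 209 and 197 per kb against 429, 336, 366 and 342. The regions with the lower ratio thus also had the smaller denominator. Of the H3-peak-free regions, chr4:9333801-9334600 had the most input, with 140, 133, 120 and 110 reads per kb and an enrichment of 1.14, 1.51, 1.49 and 1.40. The least was found at chr3:23589601-23590400, where 15, 15, 19 and 2 input reads gave an enrichment of 4.35, 2.77, 2.72 and 20.3. The last value rests on 2 input reads and shows how far a low input can move the ratio of a single region.

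Enrichment in the H3-peak-free regions was slightly lower in the mutant. The mean of 1.87 ± 0.00573 in NIP compared with 1.81 ± 0.00428 in the mutant (SD, n = 2 each), a difference of -0.0508 or -2.72%. Where only H3 peaks with a false discovery rate of at most 1e-10 were counted, it was -0.109 over 18648 regions. Both oschz1 libraries were below both NIP libraries, and the difference was several times the SD of either genotype. The constant that scales each library's input enters this value directly and was not varied. The two-sided exact permutation test gave p = 0.333, the smallest p that 2 libraries against 2 allow, so that no comparison of library values here could pass 0.05. In single regions the median log2 change was -0.036, and 55.3% of the regions changed downwards. Both oschz1 libraries were below both NIP libraries in 1341 regions (19.2%) and above both in 1015 (14.6%). Among all 38145 regions these shares were 26.6% and 11.0%, and the differences between the shares were not tested.

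The decrease was smaller than where H3 peaks were present. H3-peak-bearing regions went from 2.64 ± 0.0138 to 2.42 ± 0.0139, a change of -8.27%. Regions with peaks of 1, 2 and 3 H3 libraries lay between, with changes of -5.14%, -6.48% and -7.51%. On the log2 scale the change was -0.04 without and -0.12 with H3 peaks. Each library's log2 enrichment in the H3-peak-free regions was set against its own value in the H3-peak-bearing regions, which gave -0.50 and -0.50 in NIP and -0.42 and -0.41 in oschz1. The genotypes did not overlap, and the difference of 0.08 (means -0.50 ± 0.00311 and -0.42 ± 0.00485, SD, n = 2 each) had an exact permutation p of 0.333, again the smallest possible. The 73 regions that touched an H3 peak changed by -0.10, close to the -0.08 of the regions with a peak of 1 H3 library.

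The smaller decrease was found at every width. The log2 change of the H3-peak-free regions ran from -0.06 to -0.01 over the 16 widths and that of the H3-peak-bearing regions from -0.14 to -0.10. At all 16 widths, relative to the H3-peak-bearing regions, both oschz1 libraries were above both NIP libraries. In the H3-peak-free regions alone, both oschz1 libraries were below both NIP libraries at 13 of the 16 widths. The same was true on 11 of 12 chromosomes, the exception being chromosome 10, where the libraries had 1.87 and 1.85 in NIP and 1.87 and 1.83 in oschz1. The change by chromosome was between -0.07 and -0.01, against -0.14 to -0.11 for the H3-peak-bearing regions. Widths and chromosomes are parts of the same libraries, so these counts are not independent repeats.

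**Figure D3:**
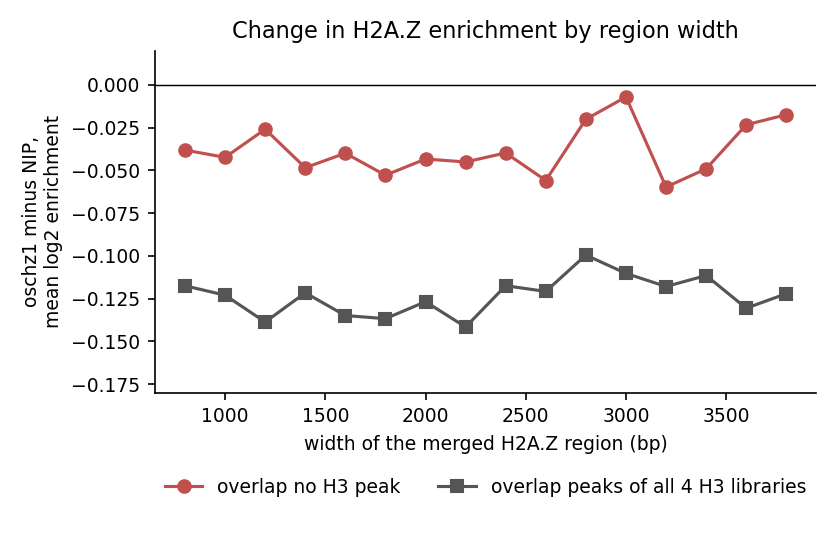
Change in H2A.Z enrichment (oschz1 minus NIP, mean log2 ChIP over scaled input of 2 libraries each) at each region width (bp). Circles are regions without H3 peaks, squares regions with peaks of all 4 H3 libraries. All points are below 0, and at every width the circles (-0.06 to -0.01) are above the squares (-0.14 to -0.10).

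Because H3-peak-free regions had less H2A.Z, the change was also compared among regions of more similar level. In steps of 0.25 of the mean log2 enrichment from 0.25 to 1.75, their log2 change was closer to 0 in all 6 steps, by 0.04, 0.05, 0.06, 0.07, 0.08 and 0.03. Relative to the H3-peak-bearing regions, both oschz1 libraries were above both NIP libraries in the lower 5 steps, while they overlapped in the highest step, which held 88 H3-peak-free regions. In either class the change was least in the lowest and greatest in the highest step, -0.01 and -0.10 without and -0.05 and -0.13 with H3 peaks. Among regions of like input density the difference was 0.10 at 30 to 40 input reads per kb and 0.10, 0.07, 0.06 and 0.05 in the next 4 steps, the last being 70 and above, so that it narrowed as input rose. Below 30 only 5 H3-peak-bearing regions remained. These steps were chosen after the data had been seen and carry no test. The steps of level did not match the classes fully. From 1.25 to 1.5 NIP had 2.47 and 2.55 without and 2.70 and 2.72 with H3 peaks, while from 0.25 to 0.5 it had 1.35 and 1.36 against 1.35 and 1.38. The part of the level in the smaller decrease was not tested. Every region had a peak in all 4 H2A.Z libraries by selection, so that a region whose peak was lost in one genotype is not included. Among the 11019 merged regions of the same widths without H3 peaks, 172 had H2A.Z peaks in both NIP and neither oschz1 library and 424 in both oschz1 and neither NIP library. With peaks of all 4 H3 libraries these were 33 and 77 of 9515, so that the second number was the higher one in both classes.

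**Figure D4:**
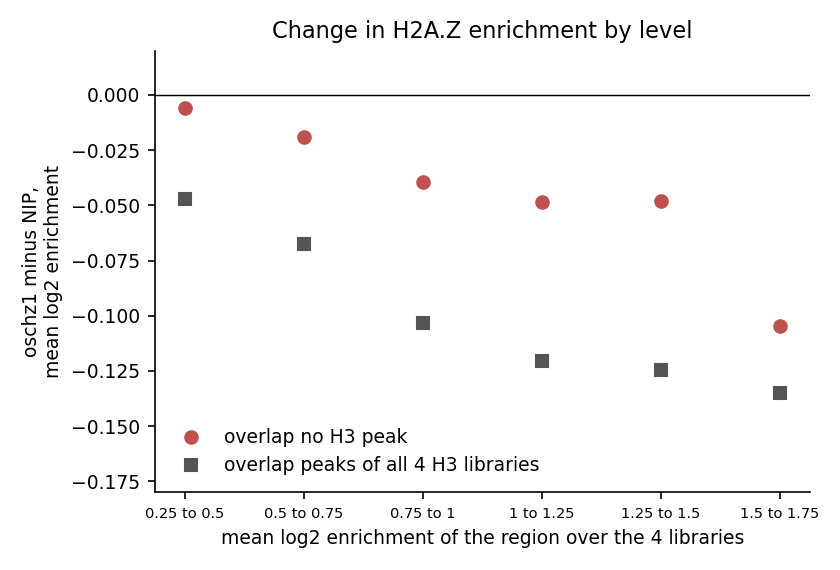
Change in H2A.Z enrichment (oschz1 minus NIP, mean log2 of 2 libraries each) in steps of the mean log2 enrichment over the 4 libraries. Circles are regions without H3 peaks, squares regions with peaks of all 4 H3 libraries. The circles are above the squares in all 6 steps, by 0.03 to 0.08.

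Distance from H3 peaks made little difference to the level. In regions up to 200 bp from an H3 peak (311 regions) the enrichment was 1.91 and 1.90 in NIP and 1.83 and 1.79 in oschz1. In regions more than 3000 bp away (1433 regions) it was 1.85 and 1.85 in NIP and 1.81 and 1.82 in oschz1. The log2 change was -0.07 in the nearest group, -0.04 from 200 to 1000 bp, -0.04 from 1000 to 3000 bp and -0.03 beyond. In each of these groups both oschz1 libraries were below both NIP libraries, and the differences between the groups were not tested.

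On average, H2A.Z peaks covered more of an H3-peak-free region in the mutant. The mean covered length was 1257 and 1225 bp in NIP and 1336 and 1323 bp in oschz1, with means of 1241 ± 22.7 and 1330 ± 9.48 bp (SD, n = 2 each), so that both mutant libraries were above both wild-type libraries by more than the spread of the replicates. The difference was 88.1 bp or 7.10% (exact permutation p = 0.333, the smallest possible). In H3-peak-bearing regions, selected by the same widths, it was 38.7 bp or 2.41%. In 999 H3-peak-free regions (14.3%) the covered length of either oschz1 library exceeded that of either NIP library, and in 371 (5.32%) it was shorter, as against 11.3% and 5.06% of all regions. Peak edges varied between libraries, for the part covered in all 4 had a median of 66.7% of a region. All 4 libraries had the same extent in 572 H3-peak-free regions (8.21%).

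The H2A.Z reads of the H3-peak-free regions were tested with edgeR's quasi-likelihood test, fitted over all 38145 regions. Library sizes were the summed reads of all peaks, and regions with a Benjamini-Hochberg adjusted p up to 0.05 were called. Of the 6969 regions, 51 (0.732%) were higher in oschz1 and 5 (0.0717%) were lower. Of all regions, 0.731% were higher and 0.0760% lower, so with these settings the H3-peak-free regions were called at nearly the share of all regions. In each of the 51 regions the peaks were longer in both oschz1 than in both NIP libraries, and in each of the 5 they were shorter. The median log2 change of the 51 was 1.10 in reads and 1.12 in covered length, while that of enrichment was -0.02. Enrichment in both oschz1 libraries was above both NIP libraries in 7 of the 51 and below both in 8. The reads of a region are counted only inside each library's own peaks, and these calls went with the extent of the peaks. Peak extent in either genotype also set the merged width used for selection, so these calls are not independent of the selection. Leaving out any library left a single library in a genotype, and the numbers called moved with the library left out. The median log2 change in reads of the H3-peak-free regions was then 0.06 to 0.08, against -0.03 to -0.02 over all regions. With limma on the ratio to input 0 regions were called in either direction. At an unadjusted p under 0.05 it had 204 higher and 292 lower (660 and 1778 of all 38145). With DESeq2 191 were higher and 26 lower, against 716 and 122 of all 38145 regions. The share of H3-peak-free regions among the calls thus depended on the method.

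**Figure D5:**
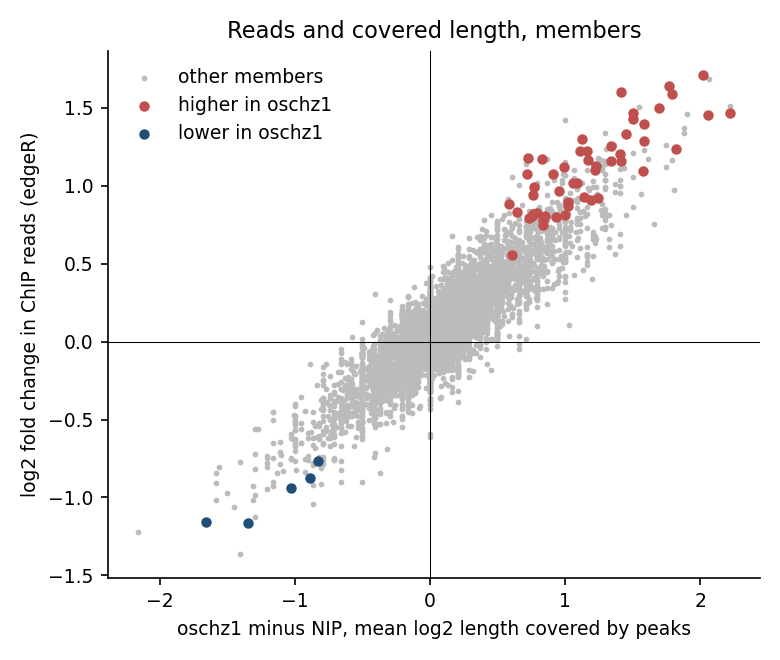
Log2 fold change in H2A.Z ChIP reads from edgeR (y axis) against the change in log2 length covered by peaks (x axis, oschz1 minus NIP) for the 6969 regions without H3 peaks. The 51 regions called higher are all to the right of 0 and the 5 called lower all to the left, along one diagonal with the other regions.

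The largest rise in reads was at chr6:26252801-26255000, with 89 and 87 reads in NIP and 299 and 278 in oschz1. Its peaks covered 400 and 600 bp in NIP and 2200 and 1800 bp in oschz1, while enrichment was 1.36 and 2.01 against 1.71 and 2.08. The genotypes were apart in reads and length and overlapped in enrichment. Neither NIP library alone covered 800 bp, the least width selected, so the merged width came from oschz1. The same held at chr4:29440001-29442000, with 600 and 400 bp covered in NIP. At chr11:3517801-3519400 the width came from NIP, with 400 bp covered in each oschz1 library. The adjusted p-values below do not allow for this selection. The log2 change in reads was 1.71 ± 0.19 (SE, edgeR adjusted p = 0.00892). At chr4:29440001-29442000 the reads were 107 and 66 in NIP and 241 and 284 in oschz1 (log2 change 1.64 ± 0.21, edgeR adjusted p = 0.0176). At chr4:17068001-17071600 they were 213 and 166 in NIP and 552 and 582 in oschz1 (log2 change 1.60 ± 0.13, edgeR adjusted p = 0.00150), with 1200 bp covered in both NIP libraries and 3000 and 3400 bp in oschz1. The largest fall was at chr6:25735201-25738200, with 456 and 324 reads in NIP and 155 and 186 in oschz1, over 2800 and 2600 bp and 800 and 1400 bp (log2 change -1.17 ± 0.17, edgeR adjusted p = 0.0249). At chr11:3517801-3519400 the reads went from 298 and 201 to 110 and 109 (log2 change -1.16 ± 0.18, edgeR adjusted p = 0.0353). At chr3:33402601-33405400 they went from 525 and 364 to 267 and 190 (log2 change -0.94 ± 0.16, edgeR adjusted p = 0.0475). Of these falls, that at chr11:3517801-3519400 lost its call whichever library was left out (edgeR adjusted p 0.0540 to 0.112). Those at chr6:25735201-25738200 and chr3:33402601-33405400 lost theirs without some library, with an adjusted p of up to 0.0641 and 0.118. Among the rises, the call at chr4:29440001-29442000 was lost without oschz1 replicate 2 (edgeR adjusted p = 0.0668). At chr3:33402601-33405400 enrichment was lower as well, at 1.82 and 2.16 in NIP and 1.47 and 1.25 in oschz1, the only one of these 6 regions in which both oschz1 libraries were below both NIP libraries.

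To hold the extent fixed, reads were also compared in the 7107 regions that all 4 libraries covered alike. Here the total of mapped reads served as library size. Of the 572 H3-peak-free regions among them, edgeR called 13 (2.27%) lower and 0 higher in the mutant, whereas among all such regions 10.7% were called lower and 0.338% higher. Without adjustment, 36 of the 572 were lower and 10 higher at p under 0.05 (1739 and 103 of all 7107). Limma on the ratio to input had 0 adjusted calls, with 19 lower and 17 higher unadjusted (379 and 138 of all 7107). DESeq2 also had 0 adjusted calls among the 572, with 5 lower and 8 higher unadjusted (136 and 102 of all 7107). The median log2 change was -0.02 in H3-peak-free regions, -0.09 in all regions of the same extent and -0.14 in H3-peak-bearing ones. The H3-peak-free regions had fewer reads to test, with a median of 234 per library against 302 in all such regions, and its part in their lower share of calls was not tested. TMM scaling set the median of all regions near 0, a shift of about 0.10, and then 2 regions were lower and 1 higher (43 and 33 of all 7107). Unadjusted, 12 were then lower and 56 higher (524 and 430 of all 7107). The median of the H3-peak-free regions was 0.07 with TMM or DESeq2 and 0.01 with reads in peaks as library size. Its sign thus depended on the library size. With mapped reads as library size and any library left out, the numbers called moved. The median of the H3-peak-free regions was then -0.04 to -0.01, against -0.11 to -0.08 in all regions of the same extent.

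The largest fall at a fixed extent was at chr10:9984001-9984800, with 348 and 233 reads in NIP and 209 and 165 in oschz1, or 9.70 and 8.52 against 6.29 and 5.35 RPM of mapped reads (log2 change -0.65 ± 0.12, edgeR adjusted p = 2.32e-05). Its enrichment was 3.38 and 2.55 in NIP and 2.33 and 7.69 in oschz1, where the last value rests on 9 input reads. At chr11:6661801-6663000, an H3-peak-free region 4800 bp from the nearest H3 peak, RPM of mapped reads was 10.1 and 12.2 in NIP and 8.01 and 6.35 in oschz1 (log2 change -0.62 ± 0.11, edgeR adjusted p = 9.46e-06). At chr1:14407401-14408400 it was 8.48 and 7.83 in NIP and 5.69 and 6.09 in oschz1 (log2 change -0.47 ± 0.12, edgeR adjusted p = 0.00424, but 0.107 without NIP replicate 1 and 0.0606 without oschz1 replicate 1). In this region the enrichment was also lower, at 2.09 and 2.22 in NIP and 1.45 and 1.49 in oschz1. It was the only one of these 3 in which the genotypes were apart in both measures, but TMM ended its call (edgeR adjusted p = 0.0979). With TMM the calls at chr10:9984001-9984800 (edgeR adjusted p = 0.00289) and chr11:6661801-6663000 (edgeR adjusted p = 0.00283) remained.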

How the data were processed

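Reads from rice ChIP-seq libraries were trimmed by the authors, aligned with Bowtie2 against the MSU rice assembly and filtered for mapping quality and duplicates. The authors called H2A.Z peaks per library against input with SICER (windows of 200 bp, false discovery rate 0.05). The caller for H3 is not given in the sources used here. The deposited tables hold, per peak, counts of ChIP and input reads that are not normalised, p-values and q-values, and the fold, which is a ratio of ChIP to input divided by a constant per library, which was recovered from them. Of the peaks, 26 had no input reads and were left out when the constants were recovered. Touching peaks were joined.

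Changed reads were tested with edgeR 4.0.16 in R 4.3.3, which was tested on simulated data. Alternatives used limma 3.58.1, DESeq2 1.42.0 and a pseudocount of 0.5. For library values, exact permutation tests were two-sided. Named regions were the 5 most enriched with at least 50 ChIP and 20 input reads, the 3 largest rises and falls of each test where the oschz1 libraries were both outside the range of NIP in RPM, the 3 farthest from an H3 peak and the 2 extremes of input density. The members and lists were chosen with earlier results of these data known. No annotation of the same assembly was used, so genes and sequences were not analysed here.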

Additional observations from a re-analysis of the deposited data

How the results depend on the processing

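The lower enrichment, the smaller decrease relative to regions with H3 peaks and the longer covered length kept their direction under all 11, 11 and 9 alternatives. These did not vary the constant that scales input to ChIP, which was 2.51 and 2.41 in NIP and 2.36 and 2.38 in oschz1. It enters the enrichment of each library directly and cancels in the relative change. Under the alternatives the differences ranged from -0.109 to -0.0367 for enrichment (the last a mean log2 ratio per region), from 0.07 to 0.09 on the log2 scale for the relative change and from 67.5 to 104 bp for covered length, none of which could pass an exact permutation test at 0.05. Enrichment fell most, by 0.109, with H3 peaks restricted to a false discovery rate of 1e-10. This enlarged the set from 6969 to 18648 regions, by adding regions with weaker H3 peaks, and cut the H3-peak-bearing regions from 8936 to 648. Leaving out one library at a time gave -0.0549 to -0.0468 for enrichment, 0.08 to 0.09 for the relative change, 72.1 to 104 bp for covered length and -100 to 100 bp for the distance to H3 peaks. That distance differed by -600 bp with H3 peaks of a false discovery rate of 1e-10.

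Counts of changed regions depended on the method. Over all regions, the 51 higher and 5 lower became 191 and 26 with DESeq2 (716 and 122 of all 38145). They became 0 and 0 with limma on log2 ChIP over scaled input (204 and 292 at an unadjusted p under 0.05, 660 and 1778 of all 38145). Where at least 80% was shared they were 24 and 10 of 1903 (121 and 468 of all 17222). With TMM they were 54 and 4 (294 and 22 of all 38145). Leaving out one library gave 23 to 108 higher and 2 to 6 lower, the fewest higher without oschz1 replicate 2 (23) and replicate 1 (25) and the most without NIP replicate 1 (108) and replicate 2 (77). At the same extent, the 13 lower and 0 higher became 2 and 1 with TMM (43 and 33 of all 7107) and 0 and 0 with DESeq2 or limma. They became 6 and 0 with reads in peaks as library size (284 and 25 of all 7107). Leaving out one library gave 5 to 7 lower and 0 higher.

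With the replicate number as a block, 2 regions were lower and 35 higher in the test over all regions (15 and 216 of all 38145). At the same extent 10 were lower and 0 higher (571 and 20 of all 7107). The block ended the calls at chr6:25735201-25738200 (edgeR adjusted p = 0.0519) and chr11:3517801-3519400 (edgeR adjusted p = 0.0813). TMM ended that at chr3:33402601-33405400 (edgeR adjusted p = 0.0563) and, at the same extent, that at chr1:14407401-14408400 (edgeR adjusted p = 0.0979). The deviations of same-numbered libraries had a correlation of -0.0117 over all regions and 0.0103 over the regions without H3 peaks. Values of single regions were imprecise, so these correlations cannot decide whether same-numbered libraries shared a batch.

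Of the 9 regions named for a called change in reads, the log2 change of reads had the opposite sign to that of ChIP over input at chr10:9984001-9984800 (0.52), chr4:29440001-29442000 (-0.20) and chr11:3517801-3519400 (0.018), all with limma. The median log2 change in reads over all 38145 regions was -0.02, 0.07 in the regions without and -0.07 in those with H3 peaks. Low input counts limit single regions, since 1071 of the 6969 had fewer than 20 input reads in some library.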
